A study of Homo sapiens with 6 samples.

Results

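The genes described here are 39 genes of the cell cycle engine: cyclins, cyclin-dependent kinases (CDKs), CDK inhibitors, the CDC25 phosphatases with their opponent WEE1, and the RB and E2F families. They were taken by symbol from the 27968 genes of the deposited gene tables, and all 39 were found. RNA came from T47D, a human luminal breast cancer cell line that expresses the estrogen receptor, grown in RPMI medium with 10% serum. One group received a control siRNA and the other an siRNA against HOTAIR-N, one version of HOTAIR, a long noncoding RNA, and RNA was taken 48 hours after transfection with a lipid reagent. Each group held 3 libraries, replicates 1 to 3, from separate transfections. The cells were not treated in any other way that the labels name, and no further siRNA against the same target was analysed here.

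Progress through the cell cycle depends on CDKs, which are active only when bound to a cyclin. D cyclins with CDK4 or CDK6 and then E cyclins with CDK2 phosphorylate RB and its relatives, which frees E2F factors to switch on genes for DNA synthesis. A and B cyclins with CDK1 then drive mitosis. INK4 inhibitors bind CDK4 and CDK6, and CIP/KIP inhibitors bind cyclin-CDK complexes, mainly those of CDK2. In luminal breast cancer cells the estrogen receptor drives cyclin D1, and the step from G1 to S phase is the target of CDK4/6 inhibitor drugs.

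The libraries held from 31777000 to 36707200 expected counts each, and levels are given as CPM, the count relative to library size after TMM scaling. The targeted gene, HOTAIR, fell from 16.3 ± 0.301 CPM in control libraries to 5.65 ± 0.0242 CPM after its siRNA (SD, n = 3, edgeR adjusted p = 2.1e-09). All 12 luminal breast markers checked were expressed, with a summed level of 9441 to 10303 CPM per control library and 8193 to 8865 CPM per HOTAIR-N siRNA library. They did not move as 1 group: 7 fell, PGR to 36.4% and ESR1 to 32.1% of control, 3 rose, CDH1 1.86-fold, ERBB3 1.84-fold and SPDEF 1.53-fold, and KRT8 and KRT19 were not called. The 13 markers of other cells summed to 28.9 to 32.9 CPM and 26.3 to 29.6 CPM, nearly all of it COL1A1. Without COL1A1 their sum was higher after the HOTAIR-N siRNA and did not overlap, at 1.83 to 2.16 CPM and 2.62 to 3.22 CPM. VIM, a mesenchymal marker, rose from 0.154 ± 0.0344 to 1.42 ± 0.255 CPM (SD, n = 3, edgeR adjusted p = 7.6e-07), COL1A1 and COL3A1 fell to 83.6% and 30.2% of control, and 9 of the 13 were too low to test. Among these, KRT5, KRT14, PTPRC, CD3E, PECAM1 and CDH5 had at most 3.04 counts in any library. The part of these marker changes in the results below was not tested. Replicate 2 of the control siRNA and replicate 3 of the HOTAIR-N siRNA stood apart from the others of their groups, and they were the highest of their group for 23 and 21 of the 37 tested genes of the cell cycle engine. In whole cultures, fewer cells in a phase of the cycle and less RNA per cell cannot be told apart.

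Most of the engine was lower after the HOTAIR-N siRNA, and the decline was deepest for CDK2, E2F7 and the A and B cyclins. Of the 39 genes, 37 passed the filter on low counts, 25 of them fell, 8 rose and 4 were not called by the quasi-likelihood test of edgeR (threshold 0.05 on the adjusted p). Of all 14919 genes tested, 71.1% were called, 36.2% higher and 34.8% lower, so a call by itself sets no gene apart. The 8 that rose were CDK6, CDKN2B, CDKN1A, E2F2, E2F4, CDC25B, CCNH and CCNG2, and the 4 not called were CDK4, CDKN2D, E2F3 and CDK7. The median log2 fold change was -0.34 over the 37 genes and 0.02 over all genes tested. By at least 1.5-fold, 12 fell and 5 rose, against 15.1% and 17.5% of all genes tested. The 3 libraries of each group did not overlap for 34 of the 37, and for 73.4% of all genes. Without these outlying libraries of both groups, 27 fell and 9 rose, and all 33 genes called with every library were among them. Tested against a change of 1.2-fold, 24 of the 33 remained, and CCND3, RB1, E2F1, E2F2, E2F4, E2F5, E2F6, WEE1 and CCNG1 did not.

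**Figure D1:**
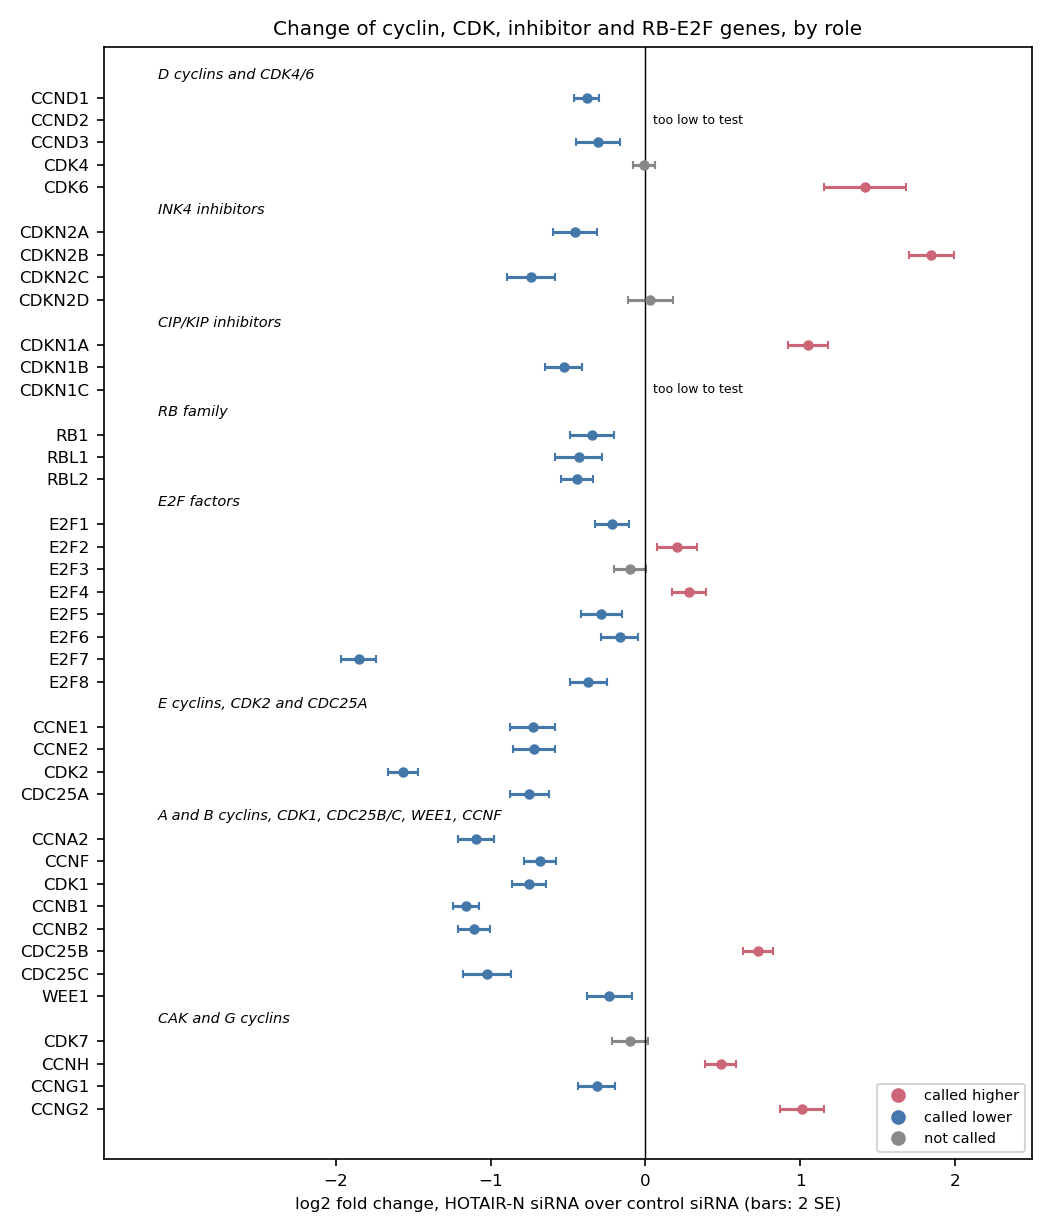
Log2 fold change of each gene (HOTAIR-N siRNA over control siRNA, x axis) by role in the cell cycle, with bars of 2 SE either side and colours for the edgeR call. E2F7 and CDK2 lie farthest to the left at -1.85 and -1.57, CDKN2B and CDK6 farthest to the right at 1.85 and 1.42, and CCND2 and CDKN1C were too low to be tested.

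Promoters of cell cycle genes carry short elements through which they are timed, and a few are shown because their genes moved together or apart. RefSeq promoters of build GRCh38.p14, from 250 bases before to 50 bases after the annotated start, were matched by symbol for 31 of the 39 genes (all but CCND1, CCND2, CDKN1C, E2F5, E2F8, CCNE2, CDK2 and WEE1). Both strands were searched for an E2F element (TTTCCCGC, TTTGGCGC, TTTCGCGC or TTTGCCGC), a cell cycle homology region or CHR (TTTGAA or TTCGAA) and a CCAAT box (CCAAT), and none of the 47 matches overlapped another. An E2F element was present in 6 of the 31 promoters (19.4%) and in 3.33% of all 27305 promoters in the table. A CHR was present in 5 (16.1%, against 16.6% of all) and a CCAAT box in 12 (38.7%, against 35.7%). The 6 genes with an E2F element were RBL1, E2F1, E2F2, E2F3, CDC25A and CDK1, of which 4 fell, E2F2 rose and E2F3 was not called. At least 1 of the 3 elements was present in 12 of the 19 matched genes that fell, in 1 of the 8 that rose (E2F2) and in 2 of the 4 not called, a difference that was not tested. The share of all promoters with any of the 3 was not counted. CHR and CCAAT matches were about as common here as in all promoters. Those shares do not compare the genes that fell with those that rose, so no conclusion is drawn from the split. A match describes letters and shows no binding. The stretches below are written 5′ to 3′ on the strand of the gene, with matches in capitals.
CCNB1, chr5:69167050-69167149, plus strand, the last 100 bases before the start with a pair of CCAAT boxes:
CCNB1: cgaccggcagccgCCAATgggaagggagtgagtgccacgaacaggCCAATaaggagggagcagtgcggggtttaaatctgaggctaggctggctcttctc
CCNB2, chr15:59105016-59105145, plus strand, the last 130 bases with 3 CCAAT boxes and a CHR:
CCNB2: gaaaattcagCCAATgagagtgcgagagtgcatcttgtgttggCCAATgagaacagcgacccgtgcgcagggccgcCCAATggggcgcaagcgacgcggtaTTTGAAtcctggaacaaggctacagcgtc
E2F7, chr12:77065610-77065809, minus strand, from 240 to 41 bases before the start with 4 CCAAT boxes read on the other strand as ATTGG:
E2F7: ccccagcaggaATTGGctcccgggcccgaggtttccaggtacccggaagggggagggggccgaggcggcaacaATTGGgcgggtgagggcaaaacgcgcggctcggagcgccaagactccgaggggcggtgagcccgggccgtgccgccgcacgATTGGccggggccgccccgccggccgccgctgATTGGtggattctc
CDC25A, chr3:48188418-48188537, minus strand, the last 120 bases with a pair of inverted CCAAT boxes and an E2F element:
CDC25A: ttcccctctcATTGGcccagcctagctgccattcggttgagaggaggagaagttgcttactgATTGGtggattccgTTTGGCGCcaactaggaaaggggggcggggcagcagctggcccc
RBL1, chr20:37095998-37096057, minus strand, the last 60 bases with a pair of E2F elements, from a gene that fell:
RBL1: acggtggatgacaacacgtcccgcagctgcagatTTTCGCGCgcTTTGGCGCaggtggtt
E2F2, chr1:23531234-23531293, minus strand, the last 60 bases with 1 E2F element, from a gene that rose:
E2F2: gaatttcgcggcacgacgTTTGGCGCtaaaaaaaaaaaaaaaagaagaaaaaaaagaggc

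Among the D cyclins and their kinases, the cyclins fell slightly and CDK4, the main partner by level, was not called. CCND1 stood at 199.6, 198 and 191 CPM in control siRNA replicates 1, 2 and 3 and at 151, 149.8 and 152 CPM in the HOTAIR-N siRNA replicates. It was thus lower in all 3 libraries, by a log2 fold change of -0.38 (SE 0.04, edgeR adjusted p = 3.4e-06). CCND3 fell to 80.9% of control (edgeR adjusted p = 0.0019), from 75.8 ± 6.06 to 61.3 ± 4.67 CPM (SD, n = 3). CCND2 was almost silent, with 1 expected count in all control libraries together and 29 after the HOTAIR-N siRNA, and was left out by the filter. CDK4 was at 284 ± 2.95 CPM and 282 ± 2.81 CPM (SD, n = 3), with a log2 fold change of -0.01 and a range of 2 SE from -0.08 to 0.06. Its sign was positive with library totals alone (0.089, called at an edgeR adjusted p = 0.042) and with upper-quartile scaling (0.048). CDK6, the other kinase of D cyclins, rose from a low level, with 2.63, 2.65 and 1.86 CPM in the control libraries and 6.12, 6.30 and 6.72 CPM in the HOTAIR-N siRNA libraries. The groups did not overlap, and the change was 2.68-fold (log2 fold change 1.42, SE 0.13, edgeR adjusted p = 1.1e-06).

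Set per transcript length, in the deposited TPM, these shifts left the makeup of the G1 kinases much as it was. D cyclin RNA summed to 160.3 ± 6.86 TPM in control libraries and 129 ± 3.95 TPM after the HOTAIR-N siRNA (SD, n = 3). CCND1 made up 54.6 ± 2.22% of it in control and 53.4 ± 2.05% in HOTAIR-N siRNA libraries (SD, n = 3), and CCND3 nearly all of the rest. CDK4 was at 285 ± 4.27 and 289 ± 1.55 TPM (SD, n = 3), whereas CDK6 was at 0.377 ± 0.0751 and 1.04 ± 0.0557 TPM (SD, n = 3). After its rise CDK6 was therefore 0.359 ± 0.0198% of the CDK4 and CDK6 total (SD, n = 3).

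The INK4 inhibitors moved in different directions. CDKN2B, which encodes p15 and is known as a target of TGF-beta signalling, rose most of all 37 genes. It was at 11.2, 11.9 and 11.9 CPM in the control libraries and at 38.0, 43.5 and 44.5 CPM in the HOTAIR-N siRNA libraries. Every HOTAIR-N siRNA library was above every control library, with a 3.6-fold rise (log2 fold change 1.85, SE 0.07, edgeR adjusted p = 7.1e-10). CDKN2C, which encodes p18 and is itself a known E2F target, fell from 17.0, 14.6 and 15.8 CPM to 9.82, 9.43 and 9.15 CPM. Its groups did not overlap either (log2 fold change -0.74, SE 0.08, edgeR adjusted p = 2.9e-06). CDKN2A fell to 73% of control (edgeR adjusted p = 0.00012). CDKN2D, which encodes p19, was at 16.0 ± 0.889 and 16.4 ± 1.16 CPM (SD, n = 3), with overlapping groups and a log2 fold change of 0.03 (2 SE from -0.11 to 0.18). It turned negative, at -0.00343 and -0.00113, without control siRNA replicate 2 or without HOTAIR-N siRNA replicate 2. In TPM these INK4 locus genes summed to 94.1 ± 2.64 and 94.0 ± 3.85 (SD, n = 3). Within that sum the CDKN2B share went from 6.15 ± 0.331% to 22.7 ± 2.33% and that of CDKN2A from 45.2 ± 2.05% to 33.5 ± 1.65% (SD, n = 3). The sum counts all CDKN2A RNA, of which 41.5 ± 1.94 and 29.2 ± 2.76 TPM (SD, n = 3) was assigned to p14ARF. That product is not an INK4 inhibitor, so the sum and its shares do not measure INK4 inhibitor RNA alone.

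The CDKN2A locus encodes both p16, an INK4 inhibitor, and p14ARF, which acts on MDM2, and here the transcript tables assigned nearly all of its RNA to the latter. NM_058195, the p14ARF transcript, took 97.5 ± 1.35% of the gene's RNA in control libraries and 92.6 ± 1.5% in HOTAIR-N siRNA libraries (SD, n = 3). NM_000077, the p16 transcript, took 1.08 ± 1.15% and 1.65 ± 0.22% (SD, n = 3), with 9.48 ± 9.9 and 10.3 ± 0.847 expected counts. The fall of CDKN2A was thus a fall of the p14ARF transcript, from 768 ± 36.8 to 529 ± 59.9 expected counts (SD, n = 3, edgeR adjusted p = 0.0089 over all transcripts). The alternative transcript NM_058197 rose in share, from 1.77, 1.55 and 1.03% in control replicates 1, 2 and 3 to 5.57, 4.39 and 6.21% (limma adjusted p = 0.018). That share call was lost without control siRNA replicate 2, HOTAIR-N siRNA replicate 1 or HOTAIR-N siRNA replicate 3 (limma adjusted p = 0.064, 0.07 and 0.061). These transcripts share most of their exons and RSEM splits the common reads by estimate, and CDKN2B-AS1 runs over part of the locus on the opposite strand.

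The CIP/KIP inhibitors p21 and p27 went opposite ways. CDKN1A, which encodes p21, an inhibitor that halts the cell cycle, was at 65.8, 62.2 and 61.1 CPM in control libraries and at 138, 137 and 117 CPM in HOTAIR-N siRNA libraries. Replicate 3 was the lowest of the HOTAIR-N siRNA libraries and still above every control library, and the rise was 2.07-fold (log2 fold change 1.05, SE 0.06, edgeR adjusted p = 2.9e-08). CDKN1B, which encodes p27, fell from 36.4 ± 2.06 to 25.2 ± 0.594 CPM (SD, n = 3, log2 fold change -0.53, edgeR adjusted p = 6.9e-06). CDKN1C, which encodes p57, had 12 expected counts in all control libraries together and 6 in the others, and was not tested. The CIP/KIP sum rose in TPM from 86.7 ± 3.86 to 143 ± 9.86 (SD, n = 3), with CDKN1A at 67.1 ± 1.16% of it in control and 85.8 ± 1.42% in HOTAIR-N siRNA libraries (SD, n = 3). Set against CDK2, a kinase that p21 binds, CDKN1A RNA was at a TPM ratio of 0.517 ± 0.0163 in control libraries and 3.18 ± 0.318 after the HOTAIR-N siRNA (SD, n = 3), a description of RNA with no test.

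**Figure D2:**
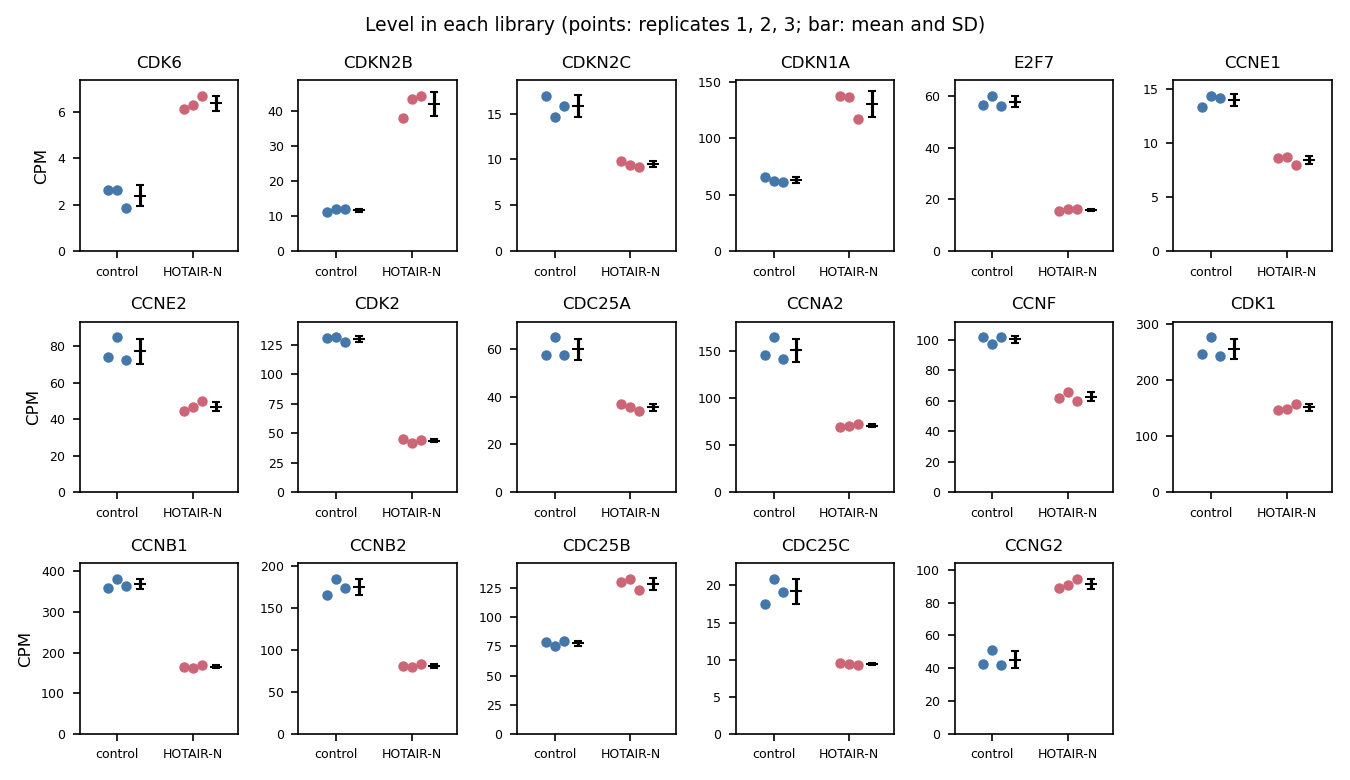
CPM of the 17 genes called with a change of at least 1.5-fold, 1 panel a gene with its own linear axis from 0, each point 1 library (replicates 1 to 3 from left to right) and the black bar the mean and SD of the group. In every panel the groups are separate, with CDK6, CDKN2B, CDKN1A, CDC25B and CCNG2 higher and the other 12 lower after the HOTAIR-N siRNA.

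**Figure D3:**
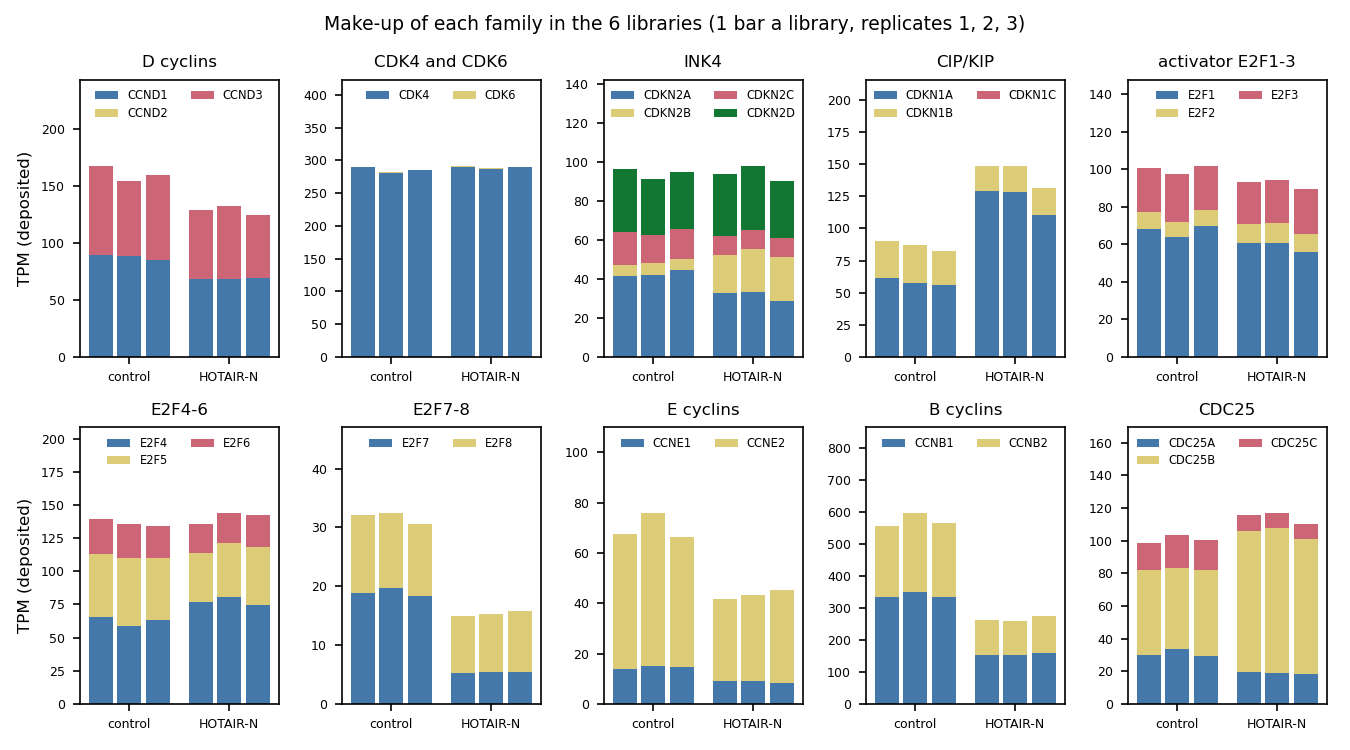
Deposited TPM of 10 gene families, 1 stacked bar a library (control siRNA replicates 1 to 3, then HOTAIR-N siRNA replicates 1 to 3), with a separate axis from 0 in each panel. The INK4 bars keep their height at about 94 TPM while CDKN2B takes a larger part, the CIP/KIP bars rise from 86.7 to 143 TPM on average through CDKN1A, and the B cyclin bars shrink from 572 to 266 TPM. The INK4 bars include all CDKN2A RNA, nearly all of it assigned to p14ARF, so their height is not that of INK4 inhibitors alone.

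All 3 members of the RB family, which hold E2F factors in check, were lower, by 0.34 to 0.44 on the log2 scale. RB1 was at 109, 125 and 105 CPM in control libraries and 84.1, 86.9 and 96.3 CPM in HOTAIR-N siRNA libraries, so that the groups did not overlap but came close (edgeR adjusted p = 0.0009). RBL1, which encodes p107, fell to 74.3% of control and RBL2, which encodes p130, to 73.7% (edgeR adjusted p = 0.00029 and 1e-05). The makeup of the family stayed alike, with RB1 at 46.6 ± 0.83% and 48.3 ± 1.75% of its TPM sum (SD, n = 3). All 3 kept their direction and call under each scaling tried. RBL2 shares exon bases with AKTIP on the opposite strand, which fell too (log2 fold change -1.17), and no source used here says whether reads were counted by strand.

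Among the E2F factors the outstanding value was that of E2F7, a repressor of E2F target genes that is itself switched on by E2F. It stood at 56.7, 60.1 and 56.2 CPM with the control siRNA and at 15.6, 16.0 and 16.3 CPM with the HOTAIR-N siRNA. The groups were far apart and E2F7 fell to 27.7% of control (log2 fold change -1.85, SE 0.06, edgeR adjusted p = 1.2e-10). E2F8, its close relative, fell to 77.5% (edgeR adjusted p = 0.00014), so that E2F7 went from 60.0 ± 1.24% to 35.0 ± 0.324% of their TPM sum (SD, n = 3). The E2F factors that activate transcription changed little. E2F1 fell to 86.1% of control (edgeR adjusted p = 0.0038), a call that library totals alone ended (adjusted p = 0.078), E2F2 rose 1.15-fold (edgeR adjusted p = 0.014), and E2F3 was at 59.0 ± 2.21 and 55.1 ± 1.46 CPM (SD, n = 3, edgeR adjusted p = 0.11). The E2F2 call was lost without HOTAIR-N siRNA replicate 2 (edgeR adjusted p = 0.076). E2F3 has a longer form, E2F3a, and a shorter one, E2F3b, and neither transcript was called (NM_001949 and NM_001243076, log2 fold changes -0.25 and 0.02, edgeR adjusted p = 0.094 and 0.9). In TPM, E2F1, E2F2 and E2F3 summed to 99.8 ± 2.43 and 92.3 ± 2.68 (SD, n = 3).

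E2F4, E2F5 and E2F6, which mostly act in repressor complexes, split. E2F4, the chief partner of p107 and p130, rose 1.22-fold from 65.5 ± 3.55 to 79.7 ± 3.17 CPM (SD, n = 3, edgeR adjusted p = 0.00059). E2F5 fell to 82% of control (edgeR adjusted p = 0.002). It shares exon bases with C8orf59 on the opposite strand, which fell by 2.40 on the log2 scale. E2F6, which works with Polycomb proteins, had a log2 fold change of -0.17 (edgeR adjusted p = 0.024). That call was the least firm of the 33, since it was lost under library totals alone, upper-quartile scaling, the replicate block (edgeR adjusted p = 0.067) and without control siRNA replicate 1, HOTAIR-N siRNA replicate 1 or HOTAIR-N siRNA replicate 2 (edgeR adjusted p = 0.082, 0.11 and 0.08). The share of E2F4 in the TPM sum of these 3 factors went from 45.7 ± 2.4% to 55.1 ± 2.26% (SD, n = 3).

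CDK2, both E cyclins and CDC25A, which act together at the start of S phase, all fell. CDK2, the kinase of E and A cyclins, was at 131, 132 and 128 CPM in control libraries and 45.2, 42.2 and 44.2 CPM in HOTAIR-N siRNA libraries. With no overlap and an SD of at most 2.21 CPM in a group, CDK2 fell to 33.8% of control (log2 fold change -1.57, SE 0.05, edgeR adjusted p = 1.2e-10). Its main transcript NM_001798 took 94.3 ± 1.07% and 94.9 ± 1.82% of the gene's RNA (SD, n = 3) and fell alike (log2 fold change -1.55, edgeR adjusted p = 2.5e-05). PMEL, which shares 89 exon bases with CDK2 on the other strand, went the other way (log2 fold change 0.92). Both E cyclins fell, CCNE1 from 13.3, 14.4 and 14.1 to 8.59, 8.70 and 7.97 CPM and CCNE2 from 74.4, 85.1 and 72.4 to 44.7, 46.6 and 49.8 CPM. Neither had overlapping groups, their log2 fold changes were -0.73 and -0.72 (edgeR adjusted p = 2.2e-06 and 1.4e-06), and CCNE2 was 79.3 ± 1.18% of E cyclin TPM in control and 79.5 ± 1.5% in HOTAIR-N siRNA libraries (SD, n = 3). CDC25A, the phosphatase that frees CDK2 from inhibitory phosphate, fell from 57.2, 64.8 and 57.2 to 37.0, 35.7 and 33.9 CPM (log2 fold change -0.75, SE 0.06, edgeR adjusted p = 5e-07), again without overlap.

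The cyclins of S, G2 and mitosis were at less than 50% of control, apart from CCNF. CCNB1 had the highest TPM of all 39 genes in control libraries, 339 ± 9.83 (SD, n = 3). In CPM it was at 359, 382 and 364 with the control siRNA and at 164, 162 and 169 with the HOTAIR-N siRNA. It fell to 44.8% of control (log2 fold change -1.16, SE 0.04, edgeR adjusted p = 3.3e-10). CCNB2 went from 166, 185 and 174 CPM to 80.8, 79.2 and 83.8 CPM, or 46.4% of control (edgeR adjusted p = 2.2e-09), and the proportion of CCNB1 within B cyclin TPM was 59.2 ± 0.593% and 58.4 ± 0.178% (SD, n = 3). CCNA2, the cyclin of S phase and early mitosis, went from 146, 165 and 142 CPM to 69.6, 70.3 and 72.7 CPM, or 46.8% of control (edgeR adjusted p = 8.5e-09). For all 3 cyclins control siRNA replicate 2 was the highest library, and no HOTAIR-N siRNA library reached a control library. CCNF, which as part of an SCF ubiquitin ligase restrains E2F1 to E2F3 and other proteins, went from 102, 97.4 and 102 CPM to 61.9, 66.0 and 60.0 CPM, or 62.4% of control (edgeR adjusted p = 1.6e-07).

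CDK1, the kinase of mitosis, fell with a smaller fold change than its cyclins, a difference that was not tested. Its level was 247, 276 and 242 CPM in control libraries and 147, 149 and 158 CPM in HOTAIR-N siRNA libraries, a fall to 59.3% (log2 fold change -0.75, SE 0.05, edgeR adjusted p = 1.2e-07). WEE1, which blocks CDK1 and CDK2 by phosphorylation, went from 36.7 ± 3.78 to 31.3 ± 0.854 CPM (SD, n = 3, log2 fold change -0.23, edgeR adjusted p = 0.012), and library totals alone ended that call (adjusted p = 0.1). The TPM ratio of CCNB1 to WEE1 was 16.0 ± 1.12 and 8.40 ± 0.0424 and that of CDK1 to WEE1 12.7 ± 0.52 and 8.85 ± 0.124 (SD, n = 3, no test). A minor CDK1 transcript, NM_001170407, took 2.20, 2.66 and 2.28% of the gene's RNA in control and 1.25, 0.99 and 1.3% in HOTAIR-N siRNA libraries, separate groups with the control ones higher (limma adjusted p = 0.024). Leaving out any 1 library ended that call (adjusted p = 0.066 to 0.079).

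The CDC25 phosphatases, which remove the WEE1 phosphate, moved apart. CDC25C, which acts at mitosis, fell from 17.5, 20.9 and 19.2 CPM to 9.61, 9.40 and 9.30 CPM (log2 fold change -1.02, SE 0.08, edgeR adjusted p = 1.9e-07). CDC25B, which starts the activation of CDK1 at the centrosome, rose from 78.3, 75.3 and 79.6 CPM to 130.0, 133 and 123 CPM. Groups were separate for both, and CDC25B rose 1.65-fold (log2 fold change 0.73, SE 0.05, edgeR adjusted p = 5.8e-08). CDC25B therefore took 51.0 ± 2.44% of CDC25 TPM in control and 75.4 ± 0.501% in HOTAIR-N siRNA libraries (SD, n = 3), while the 3 genes summed to 101 ± 2.32 and 114 ± 3.41 TPM (SD, n = 3). Of its 12 listed transcripts, NM_001287520 took the most, 75.6 ± 5.39% and 66.8 ± 11.2% (SD, n = 3). No CDC25B transcript was called in share, and NM_001287520 and NM_021873 rose in level (log2 fold changes 0.55 and 1.3, edgeR adjusted p = 0.047 and 0.0053).

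The kinase that activates the CDKs of the cell cycle and the G cyclins, which are not tied to a CDK in the usual way, gave mixed values. CDK7 was at 76.9 ± 4.51 and 71.8 ± 4.18 CPM (SD, n = 3) with overlapping groups (log2 fold change -0.10, 2 SE from -0.22 to 0.02, edgeR adjusted p = 0.16). It was called lower without HOTAIR-N siRNA replicate 3 (edgeR adjusted p = 0.043) and without both outlying libraries (adjusted p = 0.025). Its partner CCNH rose 1.4-fold, from 58.3 ± 2.73 to 81.7 ± 1.55 CPM (SD, n = 3, edgeR adjusted p = 3.2e-06). RASA1, which shares exon bases with CCNH on the opposite strand, fell (log2 fold change -0.74). CCNG2, linked to cell cycle exit and a known FOXO target that estrogen represses, was at 42.7, 51.0 and 42.1 CPM in control libraries and 88.8, 90.4 and 94.6 CPM in HOTAIR-N siRNA libraries. All HOTAIR-N siRNA libraries were higher, by 2.02-fold (log2 fold change 1.01, SE 0.07, edgeR adjusted p = 8.5e-08). CCNG1 fell to 80.4% of control (edgeR adjusted p = 0.00047).

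The 39 genes have 115 listed transcripts, of which 87 could be tested, and 27 were lower and 8 higher, against 32.0% of 32285 transcripts called either way. Shares within a gene could be tested for 73 transcripts of 23 genes, and the 2 named above for CDKN2A and CDK1 were the only calls, where 7.18% of 25038 transcripts were called. The principal transcript of CDKN1A, NM_000389, kept 97.6 ± 0.862% and 97.4 ± 1.27% of the gene's RNA (SD, n = 3), and the rise of CDKN1A was thus in that form. In all, 11 of the 39 genes share at least 50 exon bases with an opposite-strand gene of the tables in GENCODE release 29, among them CDK4 with TSPAN31 (log2 fold change 1.21) and CCNE2 with INTS8 (log2 fold change 0.41).

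The 3′ UTR 7-mer GACCAAT is carried by few genes, and by 1 of these 39. With so few carriers, its absence from the genes that fell says little about them. GACCAAT was looked up because it is known from these same fold changes to go with low values, which makes it no independent evidence. In GENCODE release 29, 5.76% of 19113 genes carry it in their longest 3′ UTR, and tested carriers had a median log2 fold change of -0.33 against 0.01 for tested genes without it. Among the 39 genes only CDK6 carries it, at base 272 of a 10219-base 3′ UTR, and CDK6 rose. The site, with the 7-mer in capitals, reads:
CDK6: agaagctgctGACCAATtgtgctgcca
The 36 tested genes without it had a median log2 fold change of -0.35.

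In most lists of genes that work around the engine, more genes fell than rose. The lists were chosen with earlier results of these data known, so their counts are no independent evidence. Of all genes tested, 36.2% were higher and 34.8% lower. All 40 mitotic target genes of DREAM and FOXM1, which the B cyclins resemble in timing, fell (median log2 fold change -1.04), among them CDCA8 and ANLN to 22% and 30.5% of control. Of 39 S phase target genes of E2F, 38 fell and 1 rose (median -0.46). MCM6, a subunit of the replicative helicase, and the histone methyltransferase gene EZH2 fell to 37.4% and 39% of control, and RFC4, a clamp loader subunit, rose 1.23-fold. RB-E2F, DREAM and MuvB partners had 15 of 19 lower and 2 higher (median -0.48). MYBL1, a MYB family activator, fell to 37% of control and LIN52, a MuvB subunit, to 30.4%, while SIN3B, a corepressor subunit, and MDM2, a ubiquitin ligase, rose 1.32-fold and 1.23-fold. These genes were called by edgeR with Benjamini-Hochberg adjustment over all genes.

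Of 9 tested genes for CKS proteins and other CDK partners, 8 fell (median log2 fold change -0.59). CKS2, a small CDK-binding protein, and CDK2AP1 were at 45.3% and 46.6% of control. The list mixes activating and inhibiting partners, CDK2AP1 and CDKN3 among the latter. Among 19 regulators of CDC25 and WEE1, 10 fell and 3 rose (median -0.30). The mitotic kinase gene PLK1 fell to 44% of control and YWHAZ, a 14-3-3 protein, to 49.8%, and ENSA and SFN rose 1.17-fold and 1.27-fold. Ubiquitin ligase genes for cyclins and inhibitors had 22 of 34 lower and 7 higher (median -0.25). CDC20 and UBE2C, which work with the anaphase-promoting complex, fell to 41.8% and 51.3% of control, and FBXO4 and ANAPC13 rose 1.93-fold and 1.68-fold. The other cyclins and CDKs, most of which act in transcription or neurons, had 15 of 29 lower and 3 higher (median -0.16). CDK8, the Mediator kinase, fell to 22.4% of control and CDK14 to 38.2%, and CCNT2 and CDK20 rose 1.61-fold and 1.36-fold.

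Upstream regulators of D cyclins and CIP/KIP inhibitors went both ways, with 13 of 33 higher and 10 lower (median log2 fold change 0.04). These counts were near the shares of all genes tested, 36.2% higher and 34.8% lower. ESR1, the estrogen receptor gene, fell from 289 ± 9.73 to 93.0 ± 6.53 CPM and IGF1R from 222 ± 4.92 to 92.2 ± 1.76 CPM (SD, n = 3). JUN rose 2.35-fold and STAT5B 1.87-fold.

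**Figure D4:**
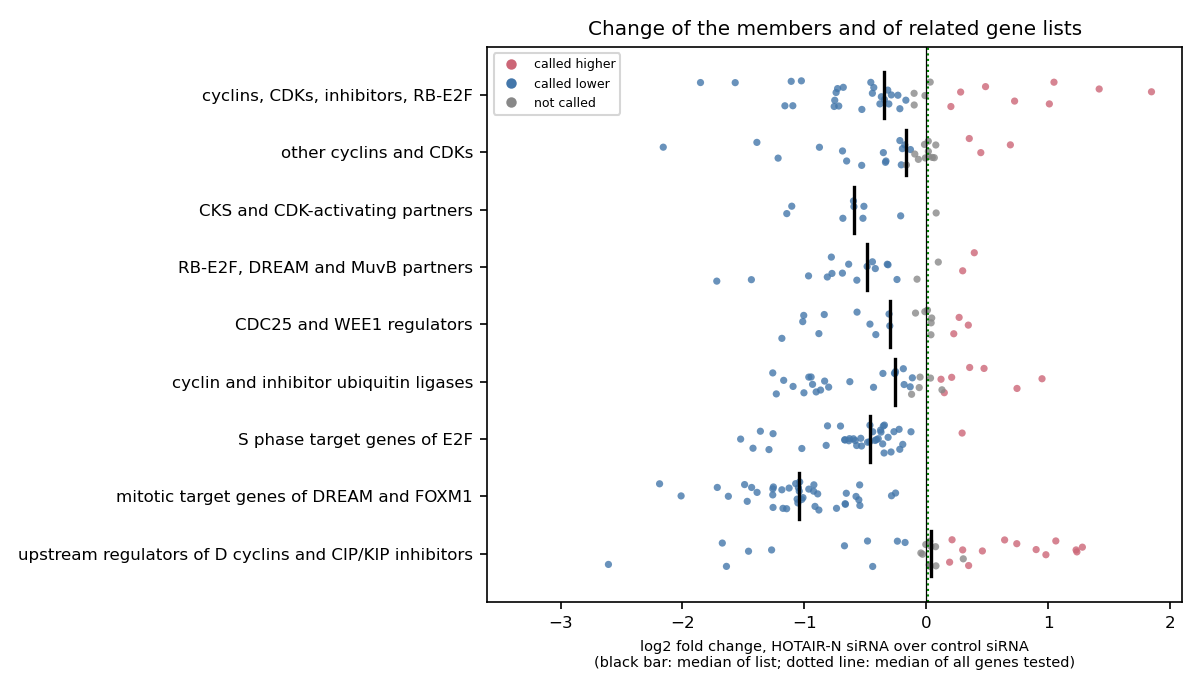
Log2 fold change of each tested gene (1 point a gene, x axis) in the cyclin, CDK, inhibitor and RB-E2F genes and in 8 lists of related genes, with a black bar at the median of each row and a dotted line at 0.02, the median of all genes tested. The mitotic targets lie wholly below 0 with a median of -1.04, and the upstream regulators spread to both sides with a median of 0.04.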

How the data were processed

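RNA of 6 T47D libraries was sequenced from ribosomal RNA-depleted, stranded total RNA, per the labels' protocols. The submitters' processing notes list STAR 2.6.0c, RSEM 1.3.0 and hg19. The deposited tables hold expected counts and TPM per gene and transcript and, as a percent, each transcript's share of its gene, per the file headers.

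Expected counts were rounded, filtered (filterByExpr, minimum count 10, minimum total 15), TMM-scaled and tested with edgeR 4.0.16 (quasi-likelihood, R 4.3.3), with Benjamini-Hochberg adjustment over all genes or transcripts and a threshold of 0.05. SE is the log2 fold change divided by the root of F. Shares were tested with limma 3.58.1 on log2(percent + 1). DESeq2 1.42.0, limma-voom, other scalings and filters, a replicate block and left-out libraries were alternatives. On simulated counts of this comparison (14780 genes tested), 44%, 79.6%, 88% and 100% of genes changed 1.2-fold, 1.5-fold, 2-fold and 4-fold were recovered. In the simulation 14581 of these genes were left unchanged, whereas 71.1% of genes were called in the data. The adjustment was therefore stricter in the simulation, and these rates do not carry over directly. Of 200 simulated 2-fold share changes among 25038 transcripts, 31% were. The genes and lists were chosen with earlier results of these data known. By the naming rule, called members changed by a log2 of at least 0.58 are given per library, and of each list the 2 called genes with the smallest p each way.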

Additional observations from a re-analysis of the deposited data

How the results depend on the processing

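Of 629 values for the 37 tested genes under the alternatives, 600 kept direction and call, 21 lost the call, 3 gained it and 5 changed sign. The sign changed for CDK4 with library totals alone (0.089) and upper-quartile scaling (0.048), for E2F3 with library totals alone (0.000419), and for CDKN2D without control siRNA replicate 2 (-0.00343) and without HOTAIR-N siRNA replicate 2 (-0.00113), in a range up to 0.084 over the left-out libraries. Tested against a 1.2-fold change, 3564 genes rather than 5407 were higher and 3312 rather than 5198 lower among all genes, and 17 instead of 28 related genes were higher. Leaving out 1 library in turn gave 7 to 8 higher and 24 to 26 lower of the 39 genes. At transcript level it gave 6 to 8 higher and 18 to 24 lower, the 18 without control siRNA replicate 1. For shares it gave 0 to 1 higher and 0 to 3 lower transcripts, which were not always the 2 called with every library. Without control siRNA replicate 2, 3 were lower, but NM_001170407 was not called (limma adjusted p = 0.069). Without HOTAIR-N siRNA replicate 1, 1 was higher, but NM_058197 was not called (limma adjusted p = 0.07).

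The replicate numbers gave no clear sign of pairing: same-numbered libraries had correlated deviations of 0.27, -0.55 and -0.46 across 10306 genes. Control siRNA replicate 2 went best with HOTAIR-N siRNA replicate 3 (0.67) and control siRNA replicate 1 with HOTAIR-N siRNA replicate 2 (0.51). Libraries thus did not go best with their own number. Deviations were taken from means of 3 libraries and an outlying library weighs on them, so they cannot settle whether samples were paired. With the replicate block, 8 of the 39 genes were higher and 24 lower, E2F6 being lost, 5 rather than 8 transcripts of the 39 genes were higher and 19 rather than 27 lower, and 0 shares were higher and 0 lower. The diffSpliceDGE test called 1 gene, CCND3, rather than 2. Depth limits CCND2, whose 29 counts with the HOTAIR-N siRNA were called higher without a filter (edgeR adjusted p = 0.00026), and CDKN1C.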
